A study of Homo sapiens with 10 samples.

Results

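The kinesin motor genes are the 43 of 20037 RefSeq protein-coding genes whose symbols are KIF with a number, together with KIFC1, KIFC2, KIFC3 and CENPE. ZEB1 binding over them was read from a table of 52981 consensus sites, where a site is an interval in which a peak was called in at least 1 condition. A site with a peak in only some conditions is there because of its signal in them, which favours a difference from the rest. A site was assigned to a kinesin gene when its midpoint lay in the gene or within 10 kb of either end, which gave 120 sites at 36 of the 43 genes. In all, 108 of the 120 passed the filter on low counts, against 46436 of all sites.

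Binding was measured by CUT&RUN, which releases the DNA under an antibody-bound protein, with an anti-ZEB1 antibody. The cells were human breast cancer cells labelled as an MDA line that lacks the estrogen, progesterone and HER2 receptors. They were grown with 300 nM eribulin for 24, 48 or 72 h (labelled MDA_ERI) or untreated (MDA_Parental), with 2 libraries in each of the 4 conditions. The treated and the untreated cells shared the same culture medium with 10% serum, and no genetic change is named. Tn5 is also named in the labelled protocol, although CUT&RUN normally cuts with micrococcal nuclease, and the point was not resolved here. A pair of IgG libraries was not analysed here. ZEB1 RNA or protein was not measured in these files, nor was the expression of any kinesin gene, so the cell label could not be checked against markers.

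Depth, as the total count over sites, was 3561455 and 3146228 for untreated cells. It was 1886419 and 1799143 after 24 h of eribulin, 1346179 and 1380070 after 48 h, and 1207987 and 1130706 after 72 h. Within each condition the pair of libraries agreed within sampling noise, with chi-square statistics per degree of freedom of 0.830, 0.886, 0.928 and 0.951 in the same order of conditions, so each pair was counted as 1 sample. The edgeR p-values below therefore compare these libraries and not the conditions, and the differences have no replicate check between cultures. The same limit holds where libraries are said below to lie above or below others, which describes values and is not agreement between cultures. Levels are counts scaled by library size and TMM (CPM) with exact 95% binomial intervals, which cover counting error only. TMM scaling sets the typical site at no change, so every direction below is relative to the other sites. A scaling to the background term of the peak caller placed the median of all tested sites at a log2 change of -0.91, -1.42 and -1.5 at 24, 48 and 72 h. In bulk chromatin, fewer cells with ZEB1 bound and less ZEB1 per cell cannot be told apart.

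Kinesins are motors that use ATP to move along microtubules or to take them apart. Mitotic kinesins build the spindle, move chromosomes and finish cell division, and their genes are known to be transcribed late in the cell cycle through CCAAT boxes, bound by NF-Y, and the cell cycle genes homology region (CHR), bound by the MuvB complex. Transport kinesins carry vesicles, mitochondria and endosomes. Eribulin, the drug used here, caps growing microtubule ends, and ZEB1 is a zinc finger repressor of epithelial genes that recognises E2-boxes, CAGGTG.

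The sequences below are the 250 bases before the start of 6 kinesin genes, from RefSeq on GRCh38.p14, shown because their start sites carry the levels and changes described next. Capitals mark 3 motifs, searched on both strands. The E2-box was searched as CAGGTG. The CHR was searched as TTTGAA. The CCAAT box was searched by those 5 letters, and no motif overlapped another in the 6 sequences. KIF23, an MKLP1 motor of the central spindle, is on the plus strand at chr15:69414099-69414348. KIF18A, which brings chromosomes to the spindle equator, is on the minus strand at chr11:28108157-28108406. KIFC1, a minus-end motor of the spindle, is on the plus strand at chr6:33391573-33391822. CENPE, the kinetochore motor, is on the minus strand at chr4:103198344-103198593. KIF1C, a vesicle motor, is on the plus strand at chr17:4997700-4997949. KIF12, an epithelial kinesin, is on the minus strand at chr9:114099067-114099316.
KIF23: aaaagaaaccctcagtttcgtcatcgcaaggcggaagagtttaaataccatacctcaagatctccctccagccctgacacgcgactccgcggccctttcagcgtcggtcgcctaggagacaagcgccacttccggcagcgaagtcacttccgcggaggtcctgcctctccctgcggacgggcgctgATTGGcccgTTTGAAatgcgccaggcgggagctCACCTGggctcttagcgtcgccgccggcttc
KIF18A: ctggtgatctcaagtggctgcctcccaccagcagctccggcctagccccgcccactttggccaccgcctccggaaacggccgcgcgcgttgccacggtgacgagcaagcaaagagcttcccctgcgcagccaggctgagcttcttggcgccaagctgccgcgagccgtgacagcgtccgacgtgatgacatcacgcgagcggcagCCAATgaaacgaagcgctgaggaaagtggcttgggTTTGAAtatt
KIFC1: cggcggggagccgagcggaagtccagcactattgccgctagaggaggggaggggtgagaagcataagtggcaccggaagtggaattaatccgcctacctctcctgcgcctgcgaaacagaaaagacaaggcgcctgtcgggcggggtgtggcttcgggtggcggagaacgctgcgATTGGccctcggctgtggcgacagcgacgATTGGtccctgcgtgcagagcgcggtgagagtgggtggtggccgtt
CENPE: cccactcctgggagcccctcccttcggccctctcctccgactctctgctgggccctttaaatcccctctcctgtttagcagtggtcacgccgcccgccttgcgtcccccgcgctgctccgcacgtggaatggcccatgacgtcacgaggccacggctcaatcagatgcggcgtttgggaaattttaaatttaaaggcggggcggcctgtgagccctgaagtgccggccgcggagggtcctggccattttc
KIF1C: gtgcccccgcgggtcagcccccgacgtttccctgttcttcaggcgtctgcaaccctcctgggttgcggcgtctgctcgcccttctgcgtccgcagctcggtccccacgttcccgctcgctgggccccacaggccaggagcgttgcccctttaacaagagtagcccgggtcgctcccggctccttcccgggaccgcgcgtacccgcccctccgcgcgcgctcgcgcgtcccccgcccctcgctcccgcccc
KIF12: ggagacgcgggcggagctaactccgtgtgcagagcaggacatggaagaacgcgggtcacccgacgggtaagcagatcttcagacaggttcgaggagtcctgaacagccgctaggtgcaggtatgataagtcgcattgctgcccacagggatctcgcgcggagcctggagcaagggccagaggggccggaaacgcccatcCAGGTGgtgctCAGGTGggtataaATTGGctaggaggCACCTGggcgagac

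KIF23 was the mitotic kinesin with all 3 motifs: a CCAAT box 64 bases, a CHR 55 bases and an E2-box 31 bases before the start. KIF18A held a CCAAT box at 45 bases and a CHR at 10 bases before the start, and KIFC1 held a pair of CCAAT boxes at 75 and 46 bases. CENPE and KIF1C held none of the 3 motifs in this window, which says only that these letters are absent from it. KIF12 held E2-boxes at 51, 40 and 14 bases and a CCAAT box at 27 bases before the start shown, the one nearer its site. A second RefSeq start of KIF12, with the window chr9:114099293-114099542, held a CCAAT box at 44 bases, no E2-box and no site. Its ZEB1 site, chr9:114098956-114099066, began just after the start and had 1.06 CPM in untreated cells, from 4 and 3 counts.

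Of the 35 kinesin genes with a RefSeq start sequence, 16 were mitotic. Among these 16 promoters, 1 (6.25%) held an E2-box, 5 (31.3%) held a CHR and 11 (68.8%) held a CCAAT box. Of all 15843 protein-coding promoters of the same length, 21.5% held an E2-box, 14.2% a CHR and 40.2% a CCAAT box. The 12 transport promoters held an E2-box in 1, a CHR in 1 and a CCAAT box in 4. Among 17 promoters of spindle and cytokinesis partners, such as AURKB, PRC1 and PLK1, the counts were 4, 10 and 13 in that order. These matches describe letters and are not evidence of binding.

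ZEB1 sites covered the starts of most mitotic kinesin genes. A site overlapped the window from 250 bases before to 50 after the start in 13 of the 16 mitotic genes, 8 of 12 transport genes, 2 of 4 ciliary genes and 1 of 3 others. For all protein-coding genes the share was 54.6%, or 8649 of 15843. It was 17 of 17 for spindle and cytokinesis partners and 20 of 21 for the minus-end motor dynein and its activator dynactin. For kinesin light chains and adaptors it was 9 of 14. All 13 mitotic genes that had any site had one at the start. The other 3 mitotic genes, KIF2B, KIF4A and KIF4B, had no site at all. KIF5C, a neuronal conventional kinesin, the ciliary genes KIF6 and KIF19, and KIF26A also had none. Of the 120 sites, 68 had their midpoint in the kinesin gene and 52 in its flanks, and 13 lay inside another protein-coding gene. Exons, introns and UTRs of the sites were not annotated, because no exon annotation was used here.

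Site number followed no single class. KIFC3, a minus-end motor of epithelial cells, had 12 sites, KIF13A, an endosome motor, had 11, and KIF25 had 7. In 9 genes there was 1 site. Per 100 kb of gene and flanks, mitotic genes had 2.93 sites and transport genes 2.84, against 2.94 over all protein-coding genes. KIFC2, a short minus-end motor gene, was the densest with 21.3 sites per 100 kb, followed by KIF22 with 11.5. Kinesin sites together held between 0.207% and 0.221% of the counts of a library.

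In untreated cells the start sites of mitotic kinesins spanned a more than 10-fold range, read per 100 bases because sites differ in width. The median of the 13 mitotic start sites was 5.55 CPM per 100 bases, against 4.28 over all 8306 start sites and 3.57 over the 9 of transport genes. The order ran from KIFC1 at 16.7 CPM per 100 bases, through KIF23 at 11.2 and KIF2C, a centromeric microtubule depolymerase, at 8.35, down to KIF15 at 2.39 and CENPE at 1.38. Neighbours in that order mostly had library values that overlapped, as for KIF2C and KIF20B, while KIFC1, KIF23 and CENPE stood apart from their neighbours. The ciliary gene KIF24 reached 17.0 CPM per 100 bases. Among transport genes KIF1C led with 8.70 CPM per 100 bases, and KIF3B, a subunit of heterotrimeric kinesin-2, was lowest with 1.73.

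**Figure D1:**
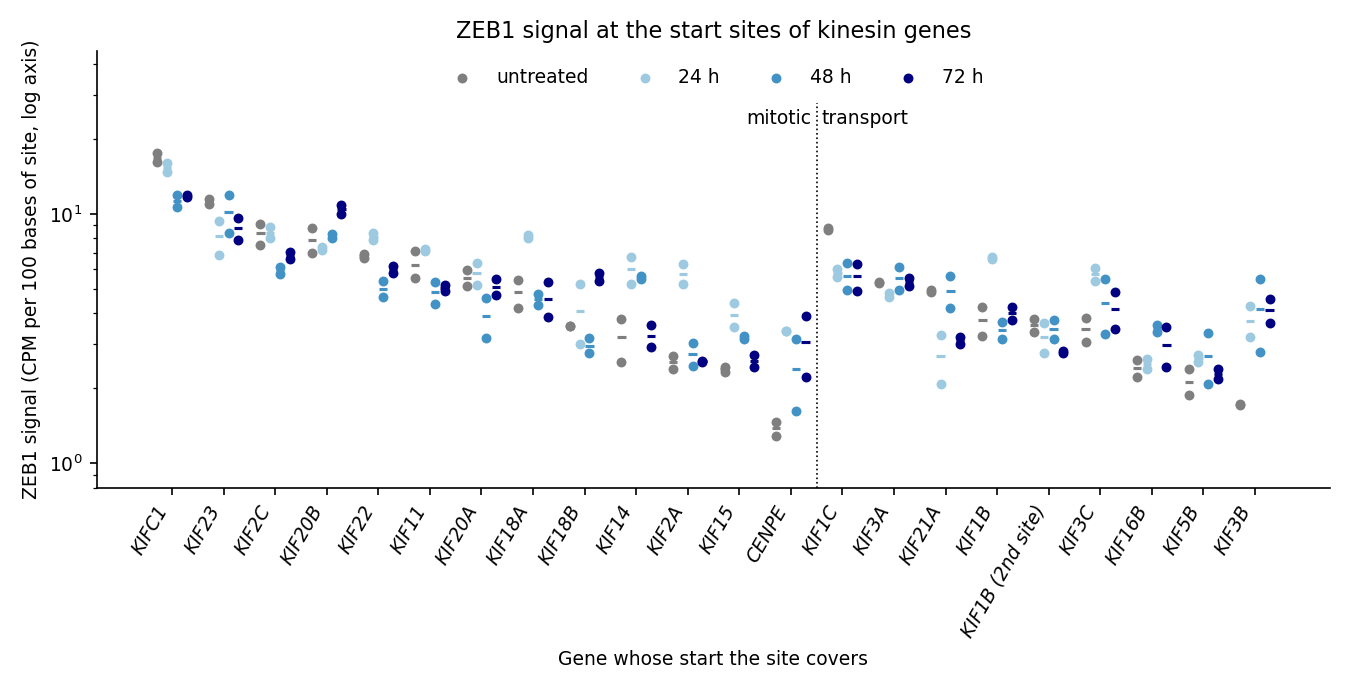
ZEB1 signal (CPM per 100 bases of site, log axis) at sites over the start of mitotic and transport kinesin genes, with 1 point per library and a bar at the pooled value of each condition, from untreated to 72 h of eribulin. KIFC1 is highest and CENPE lowest of those plotted in untreated cells, and KIF18A and KIF2A stand higher at 24 h than in the other conditions on the TMM scale. With scaling to the peak caller's background the 24 h change of KIF18A is -0.19 instead of 0.74 and that of KIF2A 0.24 instead of 1.17.

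Peaks became rarer with time on eribulin at kinesin sites and at all sites. A deposited peak overlapped 94.1%, 76.5%, 55.9% and 44.1% of the 34 mitotic kinesin sites in untreated cells and at 24, 48 and 72 h. For the 61 transport sites the shares were 86.9%, 57.4%, 31.1% and 21.3%, and for all sites 86.6%, 61.3%, 39.4% and 32.1%. Peaks stood in all 4 lists at 13 mitotic sites (38.2%) and 12 transport sites (19.7%), against 24.1% of all sites. A peak in the untreated list alone was seen at 7 mitotic sites (20.6%), 23 transport sites (37.7%) and 29.9% of all sites. At the 13 mitotic start sites, every one had an untreated and a 24 h peak and 7 had peaks in all 4 lists, and 46.2% of all start sites did so. The mitotic sites were also wider, with a median of 355.5 bases against 207 for transport sites. The total count over sites fell in the same order as the peaks. The peak caller's background term was 108%, 101% and 95.2% of its untreated value at 24, 48 and 72 h. The part of library depth in the peaks was not tested.

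**Figure D2:**
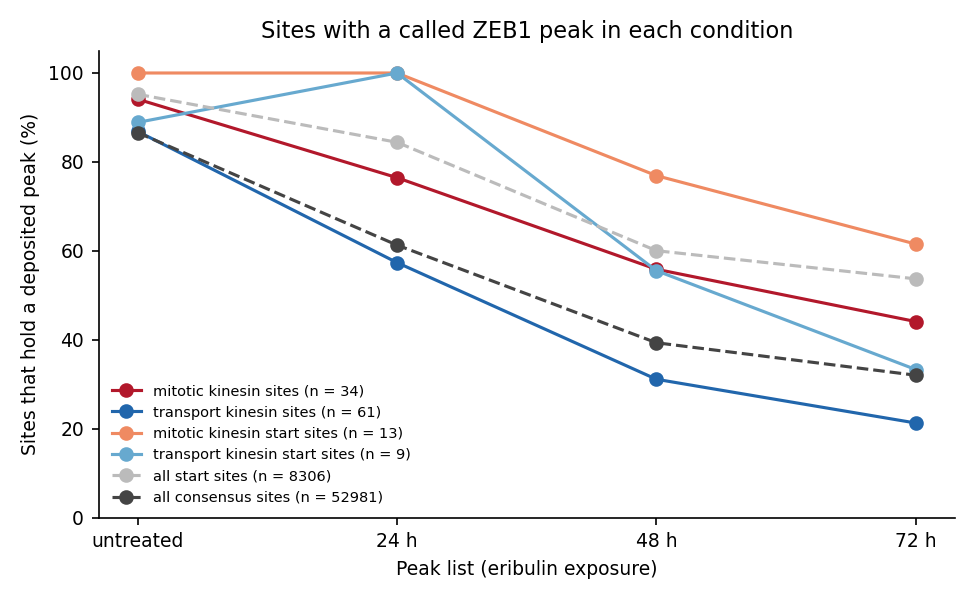
Share of sites (%) that hold a deposited ZEB1 peak in each condition, from untreated to 72 h of eribulin, for mitotic and transport kinesin sites, their start sites, all start sites and all consensus sites. Mitotic kinesin sites run above all sites in every list, and transport sites lie below all sites from 24 h on. Mitotic sites away from the start, not plotted, hold peaks at 90.5%, 61.9%, 42.9% and 33.3%, beside 86.6%, 61.3%, 39.4% and 32.1% of all sites.

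On the TMM scale the kinesin sites moved both ways at each time, in shares near or below those of all sites. At 24 h, edgeR's quasi-likelihood test called 27 of 108 lower and 22 higher than in untreated cells, where it called 26.8% of all sites lower and 28.1% higher. At 48 h, 14 were lower and 14 higher, beside 16.9% and 16.8% of all sites. At 72 h, 12 were lower and 20 higher, beside 17.0% and 18.9%. The median log2 change of the kinesin sites was 0.00, -0.09 and -0.05 at 24, 48 and 72 h, and that of all tested sites was 0.02, -0.01 and 0.00. Counting only changes of 2-fold or more, 10 were lower and 12 higher at 24 h, beside 13.5% and 14.9% of all sites. The 2-fold counts were 3 and 12 at 48 h, beside 7.55% and 10.5%, and 3 and 13 at 72 h, beside 8.55% and 12.2%. At 72 h against 24 h, 16 were lower and 17 higher, beside 16.4% and 19.4% of all sites. Of these, 7 were lower and 7 higher by 2-fold or more, beside 9.29% and 12.1%. At least 1 call against untreated cells was made for 68 of the 108 sites (63.0%), against 71.3% of all sites.

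These counts depend on how the spread and the scale are set. With a coefficient of variation of 0.2 assumed between cultures, 12 were called lower and 13 higher at 24 h, 1 lower and 12 higher at 48 h, and 3 lower and 12 higher at 72 h. Scaled to the peak caller's background, 74 of the 108 sites were lower and 4 higher at 24 h, 90 lower and 6 higher at 48 h, and 92 lower and 2 higher at 72 h.

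The mitotic and transport sites were counted apart, with the shares of all sites just given as the background. Among 34 mitotic sites, 8 were lower and 9 higher at 24 h, 6 lower and 2 higher at 48 h, and 4 lower and 5 higher at 72 h, with median log2 changes of 0.03, -0.28 and -0.18. Among 52 tested transport sites, 15 were lower and 10 higher at 24 h, 6 lower and 6 higher at 48 h, and 4 lower and 10 higher at 72 h, with medians of -0.02, -0.03 and 0.01. At the 13 mitotic start sites, 1 was lower and 5 higher at 24 h, where 19.3% and 32.4% of all start sites were lower and higher. At 48 h, 2 were lower and none higher, beside 11.2% and 11.8% of all start sites, and at 72 h, 1 was lower and 3 higher, beside 10.9% and 14.7%. By edgeR on the TMM scale, KIF18A, KIF2A, KIF14, KIF15 and CENPE were the 5 that were higher at 24 h. With the background scaling KIF18A, KIF14 and KIF15 turned to -0.19, -0.035 and -0.21.

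**Figure D3:**
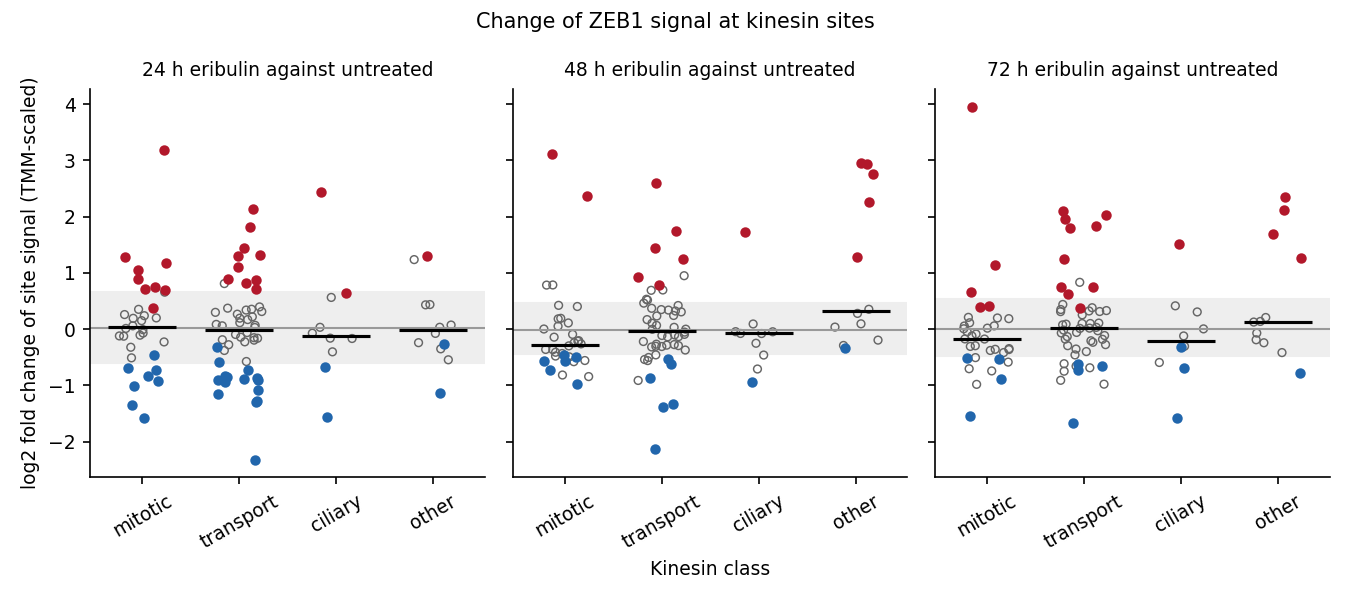
Log2 fold change (TMM-scaled) of each tested kinesin site at 24, 48 and 72 h of eribulin against untreated cells, by class. Red and blue points were called higher and lower by edgeR, open points were not called, black bars are class medians, and the grey band holds the interquartile range of all 46436 tested sites. Class medians lie within that band. With scaling to the peak caller's background, the median of all sites moves to -0.91, -1.42 and -1.5. With it 17 of 85 called values of the named sites change sign, where the 85 include 19 of 72 h against 24 h, not plotted.

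CENPE, which links kinetochores to microtubules and carries chromosomes to the spindle equator, had the largest gain of any tested kinesin site. The site lies in the gene, 60.7 kb past the start, at chr4:103137537-103137784. It had 2.83 and 1.29 CPM in the untreated libraries, 19.1 and 20.6 CPM at 24 h, 18.9 and 18.5 CPM at 48 h, and 33.0 and 34.4 CPM at 72 h. Each treated library lay above both untreated ones, and no peak had been called there in untreated cells. The site is thus a consensus site only through peaks of treated cells, which favours a gain. It was named after its values were seen. The pooled level was 33.7 CPM at 72 h (26.6 to 42.1), against 2.11 CPM in untreated cells (1.15 to 3.54), a 15.95-fold difference. The log2 changes were 3.19, 3.11 and 3.96 at 24, 48 and 72 h, with edgeR adjusted p-values of 4.71e-18, 4.69e-14 and 4.81e-26. They stayed above zero with the background scaling, at 2.28, 1.70 and 2.47.

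The CENPE start site, chr4:103198192-103198518, overlaps the sequence shown above and was weak. It had 4.82 and 4.19 CPM in the untreated libraries, 11.1 and 11.1 CPM at 24 h, 5.29 and 10.3 CPM at 48 h, and 12.7 and 7.24 CPM at 72 h. The untreated libraries were lower than each treated one, though by little at 48 h, where 7 and 14 reads or fragments were counted. The log2 change was 1.28 at 24 h (edgeR adjusted p = 0.000482) and 1.14 at 72 h (edgeR adjusted p = 0.0179), the second of which turned to -0.35 with the background scaling. The 24 h change was 0.35 with that scaling and not called, and DESeq2 called neither. Over the whole gene, CENPE was higher at all 3 times, by log2 changes of 1.29, 0.94 and 1.69 on the TMM scale. Scaled to the background they became 0.35, -0.48 and 0.19, of which the 48 h value was called lower (edgeR adjusted p = 0.0203) and the others were not called.

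KIFC1, also known as HSET, a minus-end motor that focuses spindle poles, fell on the TMM scale. Its start site, chr6:33391265-33391948, had 110 and 119 CPM in the untreated libraries, 101 and 109 CPM at 24 h, 81.6 and 73.1 CPM at 48 h, and 79.6 and 81.5 CPM at 72 h. The 48 and 72 h libraries all lay below the untreated ones. The site was called lower at 48 h (log2 change -0.56, edgeR adjusted p = 2.69e-06) and 72 h (-0.51, edgeR adjusted p = 8.1e-05). Both calls were lost with the assumed coefficient of variation of 0.2. A second site 18.7 kb past the start, chr6:33410102-33410955, lies inside PHF1 and was lower at all 3 times, by 0.83, 0.57 and 0.54 on the log2 scale. Its 48 h and 72 h calls were also lost with that assumed spread.

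KIF18A and KIF2A rose at 24 h and stood near the untreated level afterwards. KIF18A had its only site at the start, chr11:28107990-28108449, which covers the CCAAT box and CHR shown above. It had 24.9 and 19.4 CPM in the untreated libraries, 37.7 and 36.9 CPM at 24 h, 21.9 and 19.9 CPM at 48 h, and 17.8 and 24.4 CPM at 72 h. The 24 h libraries lay above all the others. The log2 change at 24 h was 0.74 (interval 0.40 to 1.08, edgeR adjusted p = 5.23e-05), which the background scaling turned to -0.19.

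KIF2A takes tubulin off microtubule ends at spindle poles and in nerve processes, and its start site lies at chr5:62305855-62306315. That site had 12.5 and 11.0 CPM in the untreated libraries, 24.1 and 29.0 CPM at 24 h, 11.3 and 14.02 CPM at 48 h, and 11.9 and 11.8 CPM at 72 h. Again only the 24 h libraries stood apart from the other 6. Its log2 change at 24 h was 1.17 (edgeR adjusted p = 3.59e-07), and 72 h lay 1.16 below 24 h on the same scale. The background scaling gave a 24 h change of 0.24 that was not called (edgeR adjusted p = 0.321). KIF2A and KIF18A have different motifs before their starts, with none of the 3 in KIF2A.

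Calls at other spindle motors were not alike on the TMM scale. KIF11, also known as Eg5, which pushes spindle poles apart, had a start site at 15.3 and 19.7 CPM in untreated libraries, 19.6 and 20.03 CPM at 24 h, 12.1 and 14.8 CPM at 48 h, and 14.4 and 13.6 CPM at 72 h. Its log2 changes of 0.19, -0.37 and -0.31 did not pass the test, with an interval of -0.92 to 0.27 at 72 h. KIF15, which can stand in for KIF11, was higher at 24 h by 0.72 (edgeR adjusted p = 0.016), turned to -0.21 with the background scaling and not called by DESeq2. KIF22, a chromokinesin, had a site just past its end, chr16:29805514-29806001, with 40.7 and 50.1 CPM at 24 h, against 22.9 and 20.3 CPM in untreated libraries. That was a log2 change of 1.06 (edgeR adjusted p = 6.63e-10), and at 72 h the site stood at 17.1 CPM. Its 24 h change with the background scaling, 0.13, was not called (edgeR adjusted p = 0.492).

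The cytokinesis motors had calls in both directions, at different times, on the TMM scale. With the assumed coefficient of variation of 0.2 those at KIF23, KIF20B and KIF20A were lost. A difference between motors was not tested. KIF23 builds the central spindle with its partner RACGAP1. Its start site, chr15:69413999-69414413, which covers the E2-box, CHR and CCAAT box shown above, had 47.6 and 45.5 CPM in the untreated libraries, 38.7 and 28.5 CPM at 24 h, 34.8 and 49.4 CPM at 48 h, and 39.8 and 32.6 CPM at 72 h. The 24 h and 72 h libraries lay below both untreated ones, while the 48 h pair straddled them. It was lower at 24 h by 0.47 (edgeR adjusted p = 0.00393) and at 72 h its log2 change of -0.36 did not pass (edgeR adjusted p = 0.0929). The 24 h call was lost without 24 h replicate 2 and with DESeq2. KIF20B, also known as MPP1, had 66.9 and 61.6 CPM at 72 h, against 43.1 and 54.2 CPM in untreated libraries, a log2 change of 0.41 (edgeR adjusted p = 0.0167) that turned to -1.09 with the background scaling. KIF20A, which brings the chromosomal passenger complex to the midzone, was lower at 48 h alone among the 3 times, by 0.51 (edgeR adjusted p = 0.0377). DESeq2 called neither of these 2 changes, and each was lost without untreated replicate 1 or without replicate 1 of its own time, that of KIF20B also without 72 h replicate 2. KIF14 had a site 9120 bases outside the gene with 4.23 and 4.53 CPM at 72 h, against 11.6 and 14.2 CPM in untreated libraries, from 5 and 5 counts at 72 h. Its start site was called higher at 24 h on the TMM scale, but not by DESeq2.

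**Figure D4:**
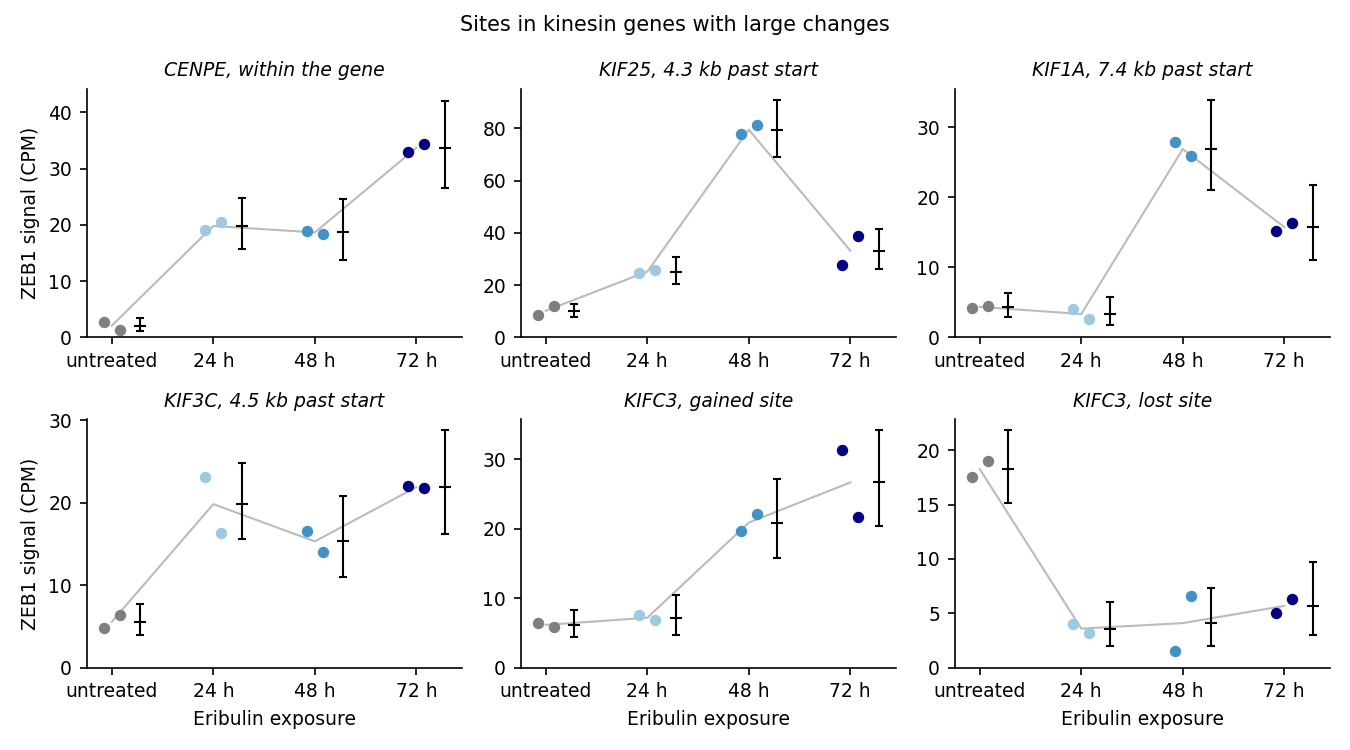
ZEB1 signal (CPM) at 6 sites of kinesin genes in untreated cells and at 24, 48 and 72 h of eribulin. Blue and grey points are libraries, the grey line joins the pooled values, and black bars show the exact 95% binomial interval of each pooled value. CENPE reaches 33.7 CPM at 72 h and KIF25 79.5 CPM at 48 h, against 2.11 and 10.3 CPM in untreated cells, and the lost KIFC3 site has 3.60 CPM at 24 h, against 18.3 CPM in untreated cells.

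Transport kinesins had both the largest loss and several gains. KIFC3, a minus-end motor known at epithelial junctions, lost signal at chr16:57829712-57829989 in the gene, a site chosen after its values were seen. It had 17.6 and 19.0 CPM in the untreated libraries, 4.02 and 3.16 CPM at 24 h, 1.51 and 6.64 CPM at 48 h, and 5.08 and 6.34 CPM at 72 h. No treated library reached the untreated values, and the only peak was in untreated cells. It is thus a consensus site through untreated cells alone, which favours a loss. The pooled level was 5.07-fold lower at 24 h (log2 change -2.32, edgeR adjusted p = 6.62e-11) and 3.21-fold lower at 72 h.

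Another KIFC3 site, chr16:57812593-57812710, went the other way. It had 6.52 and 5.81 CPM in the untreated libraries, 7.55 and 6.85 CPM at 24 h, 19.6 and 22.1 CPM at 48 h, and 31.3 and 21.7 CPM at 72 h. The 48 h and 72 h libraries lay above all others. Its log2 changes were 1.75 at 48 h and 2.098 at 72 h (edgeR adjusted p = 4.96e-08 and 2.31e-11), and with the background scaling the 48 h change of 0.33 was not called. Summed over its 12 sites KIFC3 was lower at 24 h and 48 h, by 0.53 and 0.29, and its change at 72 h was -0.01.

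KIF1C, which carries dense core vesicles and integrins, fell at its start. The site, chr17:4997415-4997950, had 46.2 and 47.1 CPM in the untreated libraries, 32.2 and 30.05 CPM at 24 h, 34.0 and 26.6 CPM at 48 h, and 33.9 and 26.3 CPM at 72 h. All 6 treated libraries lay below both untreated ones. The log2 changes were -0.58, -0.62 and -0.63, with edgeR adjusted p-values of 0.00038, 0.00173 and 0.00311. None of the 3 was called by DESeq2 or with the assumed coefficient of variation of 0.2, and leaving out 48 h or 72 h replicate 2 ended the call of that time. KIF21A, a neuronal kinesin-4, was lower at its start at 24 h and 72 h, by 0.87 and 0.66, the second not called by DESeq2 or without either 72 h library, while at 48 h its level was 31.0 CPM, beside 31.1 CPM in untreated cells.

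The kinesin-2 genes, whose products move cargo in cilia and cytoplasm, did not have the same calls. KIF3C had a site 4.5 kb past its start, chr2:25977937-25978093, with 4.82 and 6.45 CPM in the untreated libraries, 23.1 and 16.3 CPM at 24 h, 16.6 and 14.02 CPM at 48 h, and 22.01 and 21.7 CPM at 72 h. All treated libraries stood above the untreated ones, and the log2 changes were 1.82, 1.45 and 1.96 (edgeR adjusted p = 5.6e-10, 9.02e-05 and 8.18e-09). These became 0.89, 0.03 and 0.46 with the background scaling, and the 48 h and 72 h calls were lost. KIF3B had a weak start site that rose by 1.10, 1.25 and 1.25, of which the 48 h and 72 h changes turned to -0.16 and -0.25 with the background scaling. DESeq2 called none of the 3. KIF3A, its partner, had 42.1 CPM at the start in untreated cells and 37.6, 44.1 and 42.4 CPM at 24, 48 and 72 h. The interval of its log2 change at 72 h was -0.34 to 0.35.

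KIF1A, a carrier of synaptic vesicle precursors, had 1 site, 7.4 kb past the start at chr2:240812628-240813006, and it too was chosen after its values were seen. It had 4.25 and 4.52 CPM in the untreated libraries, 4.02 and 2.64 CPM at 24 h, 27.96 and 25.8 CPM at 48 h, and 15.2 and 16.3 CPM at 72 h. The 48 h and 72 h libraries lay above the rest, and log2 changes of 2.60 and 1.83 were called (edgeR adjusted p = 6.91e-16 and 4.35e-06), and the background scaling ended the 72 h call at 0.34. KIF13A, which moves endosomes and melanosome cargo, had 67.9 CPM in untreated cells, 54.3 CPM at 24 h, 62.7 CPM at 48 h and 88.4 CPM at 72 h at the site with the highest CPM. That site was lower at 24 h by 0.32 and higher at 72 h by 0.38, the second of which turned to -1.12 with the background scaling. DESeq2 called neither. KIF21B had a single site that was too low to test.

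Ciliary kinesins had few tested sites, 10 in all, of which 2 were lower and 2 higher at 24 h. KIF7, a Hedgehog regulator at the cilium tip, had a site 1.2 kb before its start, chr15:89656543-89656695, also chosen after its values were seen. It had 2.83 and 2.26 CPM in the untreated libraries, 12.1 and 16.3 CPM at 24 h, 6.05 and 11.1 CPM at 48 h, and 5.93 and 9.05 CPM at 72 h. Every treated library exceeded the untreated ones, and the log2 change was 2.44 at 24 h (edgeR adjusted p = 2.16e-10). KIF27 had a site in the gene with 6.77 and 3.62 CPM at 72 h, against 14.4 and 17.4 CPM in untreated libraries, a log2 change of -1.58 (edgeR adjusted p = 0.000209). KIF24, a centriolar kinesin that holds back cilium growth, had 60.8 CPM at its start at 72 h, against 76.0 CPM in untreated cells, and was called lower by 0.32 (edgeR adjusted p = 0.0486). That call was lost with no filter on low counts, with only the 4 libraries compared, with the assumed spread, with DESeq2, and without untreated replicate 2 or either 72 h library.

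KIF25, which is described as a centrosome motor, had the strongest gain at 48 h after CENPE among kinesin sites with a mean of 20 or more counts per library. The site lies 4.3 kb past the start, at chr6:168001567-168002379. It had 8.78 and 11.9 CPM in the untreated libraries, 24.6 and 25.8 CPM at 24 h, 77.8 and 81.2 CPM at 48 h, and 27.9 and 38.9 CPM at 72 h. All treated libraries were above the untreated ones and the 48 h pair above all. The 48 h level was 7.75-fold higher, a log2 change of 2.95 (edgeR adjusted p = 1.85e-43). The 48 h change with the background scaling was 1.53 and still called, and those at 24 h and 72 h, 0.36 and 0.19, were not. Another site 10.1 kb past the same start, chr6:168007496-168008028, moved the opposite way, with 90.2 CPM in untreated cells, 75.2 CPM at 24 h, 71.3 CPM at 48 h and 52.5 CPM at 72 h. Its 24 h and 48 h calls were lost with DESeq2, with the assumed spread and without either library of their own time. The 72 h call was lost with the assumed spread. The KIF12 site after the promoter with 3 E2-boxes had 7.47 CPM at 48 h (4.56 to 11.5), against 1.06 CPM in untreated cells (0.425 to 2.18), from 10 and 10 counts against 4 and 3.

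Some of these genes lie near chromosome ends. Of the tested kinesin sites, 19 were within 5 Mb of the first or last RefSeq gene of a chromosome, 7 at KIF25, 6 at KIFC2, 4 at KIF26B and 1 each at KIF1A and KIF1C. Among these 19, 2, 6 and 6 were higher at 24, 48 and 72 h, and for all sites so placed the shares were 24.2%, 30.8% and 31.0%. Among the 89 other tested kinesin sites, 20, 8 and 14 were higher, and for all other sites the shares were 28.6%, 14.8% and 17.1%. The part of chromosome position in the gains at KIF25 and KIF1A was not tested.

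Summed over each gene, 35 kinesin genes could be tested. At 24 h, 7 were lower and 8 higher, beside 28.9% and 31.8% of all tested genes. At 48 h, 7 were lower and 9 higher, beside 18.5% and 18.3%, and at 72 h, 7 and 7, beside 17.5% and 21.4%. Of 13 mitotic genes, 3 were lower and 5 higher at 24 h, 4 lower and 2 higher at 48 h, and 4 lower and 2 higher at 72 h. Of 15 transport genes, 3 and 2, 2 and 3, and 2 and 3 were lower and higher at the same times. KIFC1 and KIF1C were lower at all 3 times, and CENPE and KIF3C higher at all 3 on the TMM scale. The KIF3C changes of 0.63, 0.40 and 0.52 turned to -0.30, -1.02 and -0.99 with the background scaling and were then called lower, and CENPE turned at 48 h. With the background scaling 29, 33 and 32 of the 35 genes were lower and 0, 2 and 0 higher.

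At single sites, calls in the same direction at all 3 times were few, and the 3 comparisons share their untreated libraries. Lower at all 3 were 4 kinesin sites (3.70%, against 9.23% of all sites), 1 each at KIFC1, KIF25, KIF1C and KIFC3. Higher at all 3 were 5 (4.63%, against 6.66%), 1 each at CENPE, KIF25, KIF3B, KIF3C and KIF7. DESeq2 did not call the lower KIF25 site at 24 h and 48 h, nor the KIF1C and KIF3B sites at any of the 3 times.

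Genes that work with kinesins were counted from 3 lists. Sites of kinesin light chains and cargo adaptors, such as KLC1, TRAK1 and KIFAP3, were lower at 26 and higher at 10 of 64 tested at 24 h, with a median log2 change of -0.47, beside 26.8% and 28.1% of all sites. They were lower at 10 and higher at 4 at 48 h, with a median of -0.16, beside 16.9% and 16.8%. At 72 h they were lower at 5 and higher at 9, with a median of 0.04, beside 17.0% and 18.9%. Spindle and cytokinesis partners were lower at 6 and higher at 9 of 34 at 24 h, with a median of 0.00, lower at 7 and higher at 3 at 48 h, with a median of -0.28, and lower at 4 and higher at 5 at 72 h, with a median of -0.03. Sites of dynein and dynactin, the minus-end motor and its activator, were lower at 19 and higher at 19 of 64 at 24 h, lower at 9 and higher at 4 at 48 h, and lower at 11 and higher at 5 at 72 h. With the background scaling these lists had medians from -1.69 to -0.93 at the 3 times.

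The 10 kb limit of the gene window drew an arbitrary line. Just inside it were sites of KIF2C at 9069 bases and KIF14 at 9120 bases from the gene, with 59.0 and 12.8 CPM in untreated cells. Just outside were sites of KIF2C at 10404 bases and KIF1C at 10545 bases, with 16.4 and 33.0 CPM.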

How the data were processed

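ZEB1 CUT&RUN was analysed in 8 libraries. The deposited count table holds whole-number counts per consensus site without normalization. The 4 deposited peak lists, 1 per condition, give the peak caller's fold enrichment (a ratio) and the -log10 p-value of each peak. Per the submitters' processing notes, the tools were MACS2 2.1.1 and bedtools 2.30.0, Bowtie2 2.2.6 and cutadapt 2.4, bcl2fastq 2.20.0.422, and deepTools, featureCounts and Picard without versions; the build was hg38, and the role of each tool is not given.

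Kinesin genes, coordinates and promoter sequences came from RefSeq tables of GRCh38.p14, and 35 of the 43 genes had a promoter entry. Sites and gene sums were tested with edgeR 4.0.16 in R 4.3.3. Low counts were removed with filterByExpr, libraries were scaled by TMM, and the 8 libraries entered 1 quasi-likelihood model (robust) that had only condition in it. F tests were 2-sided, with p-values adjusted by Benjamini-Hochberg over 46436 sites or 15202 genes and called at 0.05. The common dispersion, which is the spread beyond counting noise, was 9.77e-05 (coefficient of variation 0.00988). The fit thus held almost no spread between libraries other than counting noise. Intervals are exact at 95% (binomial for levels, conditional on the pooled counts for log2 changes). Of these steps, the edgeR site test of 72 h against untreated was tried on simulated counts. Their spread was as small as in the fit, so the trial does not cover variation between cultures.

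The sites named are, for each comparison and direction, the 5 called sites with the largest change among those with a mean of 20 or more counts per library. Added to them are the strongest site of each mitotic gene, the strongest sites of 10 transport or other genes, and all start sites. A site that these rules named is not reported here. Members, classes, partner lists and the alternatives were chosen with earlier results of these data known. Alternatives were DESeq2 1.42.0, other scalings, no filter, fewer libraries, a replicate block, an assumed spread, a 2-fold minimum and other gene windows. The background scaling uses the constant background term of the peak caller, recovered from the fold and p columns of the lists.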

Additional observations from a re-analysis of the deposited data

Results flagged for a closer look

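At 19 of the named sites the signal at 72 h differed from that at 24 h by edgeR's test between those libraries on the TMM scale. The naming rules use calls of this same test, so that number does not measure how common such changes are. Over all 108 tested kinesin sites, 14.8% were called lower and 15.7% higher, beside 16.4% and 19.4% of all sites. Values are log2 changes, 72 h over 24 h. Among mitotic kinesins, lower values at 72 h were found at the start sites of KIF18A (-0.8276), KIF2A (-1.1619) and KIFC1 (-0.3797), at the KIF22 site past the gene end (-1.4053) and at a KIF2C site (-1.1977). Higher values were found at the CENPE site in the gene (0.7635), the KIF18B site in the gene (0.8352) and the KIF20B start (0.5215). Among the 52 tested transport sites, 5 were lower and 9 higher at 72 h than at 24 h. Named ones, all higher, were KIF13A (0.7018), KIFC2 (1.5113) and a pair of KIFC3 sites (0.8784 and 1.8794). Of the ciliary genes, KIF24 (-0.3537) and KIF27 (-1.4199) were lower and KIF9 (1.0814) higher. At KIF25, a pair of sites was lower (-0.517 and -0.8537) and another was higher (0.9436), and a KIF26B site was higher (1.3431). With the background scaling the change at the KIF20B start had the other sign, at -0.048. That scaling also ended the calls at CENPE, KIF18B, KIF9, KIF13A, the KIF25 site at 0.9436 and the KIFC3 site at 0.8784. DESeq2 called none of the changes at KIF24, KIF27, KIF9, CENPE, KIF18A, KIF18B, KIF20B, KIFC1 and KIF25.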

How the results depend on the processing

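Counts are given as lower and higher calls at 24, 48 and 72 h against untreated and at 72 h against 24 h. Against the counts in the report (and 16 and 17 for 72 h against 24 h), kinesin sites numbered 8 and 10, 4 and 11, 5 and 8, and 4 and 7 with DESeq2. With a 2-fold minimum they numbered 10 and 12, 3 and 12, 3 and 13, and 7 and 7. With the assumed coefficient of variation of 0.2 they were 12 and 13, 1 and 12, 3 and 12, and 5 and 6. With the background scaling they were 74 and 4, 90 and 6, 92 and 2, and 48 and 5. Factors taken from the lowest-count sites gave 41 and 16, 26 and 14, 18 and 13, and 12 and 20. Gene windows of 0 kb gave 17 and 10, 8 and 11, 7 and 14, and 9 and 13, and windows of 50 kb gave 56 and 52, 35 and 32, 25 and 40, and 32 and 42, since they hold fewer or more sites. Kinesin genes (24, 48 and 72 h) numbered 6 and 6, 4 and 5, and 3 and 3 with DESeq2, 0 and 2, 0 and 2, and 0 and 3 with the 2-fold minimum, and 0 and 2 at each time with the assumed spread. They numbered 29 and 0, 33 and 2, and 32 and 0 with the background scaling, 14 and 6, 13 and 6, and 12 and 3 with the lowest-count factors, and 6 and 5, 4 and 8, and 2 and 6 at 0 kb, 6 and 8, 5 and 9, and 5 and 6 at 5 kb, and 9 and 8, 6 and 10, and 8 and 11 at 50 kb. The cause of each difference was not tested.

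Leaving out 1 library gave 17 to 23 sites lower and 17 to 21 higher at 24 h, 6 to 13 and 12 to 16 at 48 h, 7 to 12 and 11 to 16 at 72 h, and 6 to 12 and 12 to 17 for 72 h against 24 h. For genes the ranges were 5 to 8 and 6 to 8, 4 to 7 and 6 to 8, and 2 to 7 and 3 to 7. The lowest counts came without 24 h replicate 1 for sites lower at 24 h, without 48 h replicate 2 at 48 h (9 without replicate 1), and without 72 h replicate 2 at 72 h. Sites higher at 72 h fell to 11 and 13 without 72 h replicates 1 and 2. Sites lower at 72 h against 24 h fell to 6 and 10 without 72 h replicates 1 and 2, and to 10 without 24 h replicate 2. Genes lower at 48 h fell to 4 without 48 h replicate 1 or untreated replicate 1, genes lower at 72 h to 3 and 2 without 72 h replicates 1 and 2, and genes higher at 72 h to 3 without 72 h replicate 1.

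The replicate numbers do not pair the samples (correlations of deviations from -0.0116 to 0.0052), and a replicate block moved the count of sites higher at 24 h to 23 and no other. Of 85 called values at named sites, 36 kept their call with DESeq2, 35 with the assumed spread and 52 with the background scaling. The 17 that changed sign all did so with the background scaling, as log2 changes. At 24 h they were KIF14 -0.035, KIF15 -0.21, KIF18A -0.19, KIF2C -0.56 and -0.24, and KIF3C -0.21. At 48 h they were KIF26B -0.14 and KIF3B -0.16. At 72 h they were CENPE -0.35, KIF18B -0.85, KIF20B -1.09, KIF2C -1.11, KIF26B -0.23, KIF13A -1.12, KIF3B -0.25 and KIFC2 -0.89, and KIF20B was at -0.048 against 24 h. With KIF2A counted as transport and KIF3A and KIF3B as ciliary, mitotic sites were lower at 8 and higher at 8 of 32 at 24 h. At the 72 h depth, changes at sites of 20 or fewer counts rest on few molecules.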
